A study of Mus musculus with 16 samples.

Results

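The metabotropic glutamate receptors are G protein-coupled receptors for glutamate, and 6 of their genes, *Grm2*, *Grm3*, *Grm4*, *Grm5*, *Grm7* and *Grm8*, were followed in mouse primary cortical neurons after oxygen-glucose deprivation (OGD). They were taken by gene symbol from a table of 53679 genes, and the values of their 28 annotated isoforms were added for each gene. Wild-type neurons from embryos of day 15 received 10 μM tianeptine (TIA), an atypical antidepressant, or vehicle (VEH) at day in vitro 8. After 24 h, at day in vitro 9, they underwent 3-h OGD or sham treatment, and RNA was taken 6 h later. This gave 4 cultures in each of 4 groups, CONTROL-VEH (numbered 1 to 4), CONTROL-TIA (5 to 8), OGD-VEH (9 to 12) and OGD-TIA (13 to 16), in which sample labels call the vehicle cultures untreated. The study counts the cultures of a group as biological replicates, so the p-values below measure the spread between such cultures of one laboratory. Medium held B27, and all groups were of one age in culture when RNA was taken.

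The receptors form 3 groups by sequence, signaling and pharmacology. Group I, to which *Grm5* belongs, couples through Gq to phospholipase C, inositol trisphosphate and calcium release, and lies mostly on the postsynaptic side, where Homer and Shank proteins anchor it. Group II (*Grm2* and *Grm3*) and group III (*Grm4*, *Grm6*, *Grm7* and *Grm8*) couple through Gi/o to lower cAMP, and many of these receptors sit on nerve endings and limit transmitter release. *Grm3* is also used by astrocytes, *Grm6* is known mainly from the retina, and group I receptors have long been studied in excitotoxic injury.

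Several of these genes make receptors with different carboxyl tails, and the isoform values given further on turn on the short coding stretches that tell them apart. In *Grm5* (chromosome 7, GRCm38, 87584168 to 88134907, plus strand), the isoform Grm5-204 carries a coding cassette exon of 96 bases at chr7:88116193-88116288 that Grm5-202 lacks. It is shown from the GENCODE transcript with the cassette in capitals and 15 bases of each neighbouring coding exon in lower case.
Grm5-204 cassette exon: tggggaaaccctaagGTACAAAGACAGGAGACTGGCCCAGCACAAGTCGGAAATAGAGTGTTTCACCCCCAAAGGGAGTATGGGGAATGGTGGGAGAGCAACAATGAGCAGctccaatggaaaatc
In *Grm7* (chromosome 6, 110645581 to 111567230, plus strand), Grm7-202 ends at chr6:111566018-111566067 and Grm7-201 at chr6:111501510-111501580. In *Grm8* (chromosome 6, 27275119 to 28135178, minus strand), Grm8-202 ends at chr6:27285685-27285734 and Grm8-201 at chr6:27275645-27275694. These are the coding bases that the other isoform of the pair lacks, read 5′ to 3′ on the gene's strand, with the stop codon in capitals.
Grm7-202 coding end: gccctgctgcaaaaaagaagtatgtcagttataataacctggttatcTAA
Grm7-201 coding end: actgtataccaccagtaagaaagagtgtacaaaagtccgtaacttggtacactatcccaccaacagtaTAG
Grm8-202 coding end: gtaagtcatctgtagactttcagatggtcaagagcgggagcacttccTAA
Grm8-201 coding end: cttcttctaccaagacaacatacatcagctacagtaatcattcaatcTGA

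Levels are given in FPKM, fragments per kilobase of isoform scaled to library size, as deposited, in which isoforms of one gene had been estimated separately. Adding them gives short isoforms the same weight as full-length ones, so a second value is set beside the sum: each isoform's FPKM multiplied by its length, added and divided by the length of the longest isoform. The depth was estimated at 19.7 to 25.2 M reads per culture, at which 1 read on a transcript of 1 kilobase is worth 0.0396 to 0.0507 FPKM. On that scale, *Grm5* rested on roughly 2016 to 7181 reads per culture and *Grm2* and *Grm8* on as few as roughly 86.8 and 90.0. No counting intervals were computed, because reads were assigned to isoforms by estimation. The labelled cell type was checked by its markers: 0 of 7 neuron markers had a group mean below 0.5 FPKM, and they summed to 918 to 2414 FPKM. Of 8 microglia markers, 7 were below 0.5 FPKM in each group's mean. Astrocyte markers were present too and summed to 657 to 2532 FPKM.

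*Grm5* was the most abundant receptor in all 16 cultures by length. In CONTROL-VEH, weighted by length, *Grm5* was at 35.1 ± 2.41 FPKM (SD, n = 4) and *Grm7* at 13.9 ± 1.60 FPKM. *Grm3* (7.18 ± 0.799 FPKM), *Grm4* (5.75 ± 0.683 FPKM) and *Grm2* (4.96 ± 0.914 FPKM) followed, and *Grm8* was lowest at 1.50 ± 0.468 FPKM. The neighbours *Grm3* and *Grm4* overlapped between cultures of this group, and so did *Grm4* and *Grm2*, while the steps from *Grm5* to *Grm7* and from *Grm7* to *Grm3* were free of overlap. With isoforms summed, *Grm2* was above *Grm4* in 3 of 4 CONTROL-VEH cultures, so the order of these neighbours depends on how isoforms are added. *Grm5* made up 51.3 ± 0.686% of the length-weighted total of the 6 receptors in CONTROL-VEH and 51.0 ± 6.51% in OGD-VEH. That total was 68.4 ± 5.48 FPKM in CONTROL-VEH against 34.6 ± 10.8 FPKM in OGD-VEH, and 69.4 ± 5.03 FPKM in CONTROL-TIA against 50.8 ± 10.2 FPKM in OGD-TIA. *Grm7* held 20.4 ± 2.13% of it in CONTROL-VEH and 12.9 ± 3.55% in OGD-VEH. *Grm6* reached at most 0.056 FPKM in any culture.

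**Figure D1:**
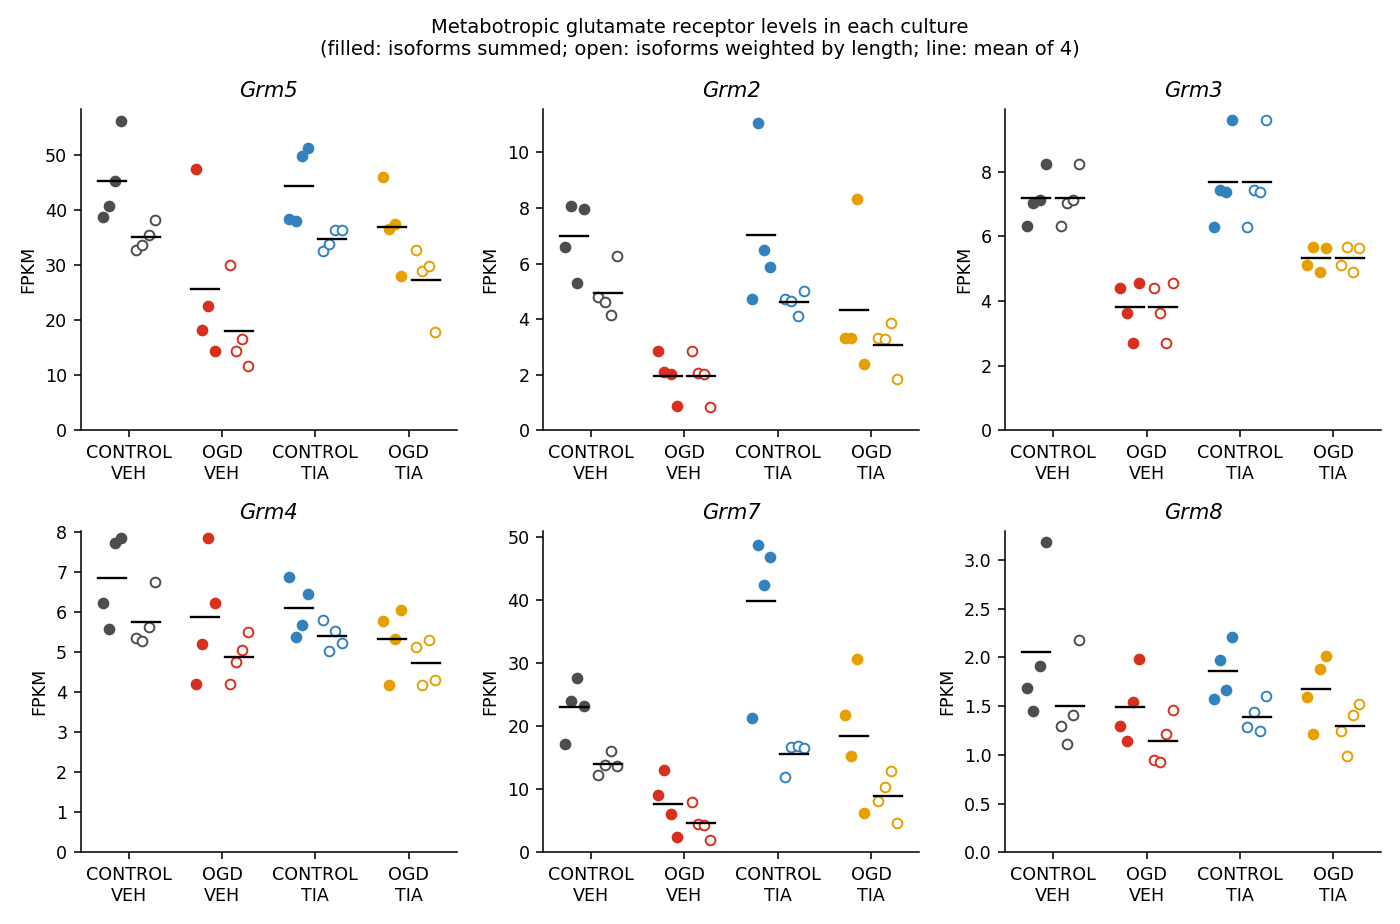
FPKM of the 6 receptor genes in each culture by group, with isoforms summed (filled points) or weighted by length (open points), and the mean of the 4 cultures as a line. For *Grm2*, *Grm3* and *Grm7*, all OGD-VEH cultures lie below all CONTROL-VEH cultures on both scales, while *Grm4* and *Grm8* overlap in all groups.

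The effect of OGD was asked first over both pretreatments, 8 OGD against 8 CONTROL cultures, with pretreatment as an additive term. *Grm2* and *Grm7*, a group II and a group III receptor, fell. The log2 fold change was -1.33 for *Grm2* (SE 0.30, padj = 0.00608 from limma) and -1.52 for *Grm7* (SE 0.35, padj = 0.00661 from limma), where a gene was called at a Benjamini-Hochberg padj of at most 0.05 over all genes and a log2 fold change no smaller than 1 in size. Thus 2 of the 6 receptors were called, both lower, where 4.78% of the 16313 genes tested were called and 1.99% called lower. For 2 further receptors the padj passed and the fold did not, with a log2 fold change of -0.71 for *Grm3* (padj = 0.00220 from limma) and -0.61 for *Grm5* (padj = 0.0390 from limma). Whatever their fold, 32.1% of genes had a padj of at most 0.05. On the summed values, *Grm4* (-0.22, padj = 0.20 from limma) and *Grm8* (-0.28, padj = 0.222 from limma) passed neither threshold. Weighted by length, *Grm4* passed the padj but not the fold (-0.21, padj = 0.0339 from limma), and *Grm8* passed neither (-0.23, padj = 0.212 from limma). The median over the 6 receptors was -0.66 and that over all genes tested 0.08. In bulk RNA, fewer neurons and less RNA per neuron cannot be told apart. Leaving out any 1 of the 16 cultures kept both calls, with *Grm2* between -1.54 and -1.13 and *Grm7* between -1.68 and -1.29. Weighted by length, *Grm2* was at -1.01 and *Grm7* at -1.28, both called where 3.26% of genes were, and *Grm2* then missed the fold threshold in 5 of the 16 omissions (CONTROL-VEH 1, 2 or 4, OGD-VEH 12 or OGD-TIA 16), reaching -0.83.

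Without TIA, OGD-VEH against CONTROL-VEH, the same receptors *Grm2* and *Grm7* were called lower, 2 of 6 receptors, where 4.09% of 16346 genes were called and 1.68% called lower. All OGD-VEH cultures lay below all CONTROL-VEH cultures for *Grm2*, *Grm3* and *Grm7*, 3 of 6 receptors, against 9.95% of genes. The median log2 fold change was -0.93 over the receptors and 0.10 over all genes. It was -0.71 over 7 neuron markers, none of them called, and the part of neuron RNA in the receptor values was not tested. Both calls sat close to the padj threshold. The call of *Grm2* was lost when any of CONTROL-VEH 1 to 4, OGD-VEH 10 or OGD-VEH 11 was left out, with a padj of 0.0656 to 0.103 from limma, and that of *Grm7* also without OGD-VEH 12, with a padj of 0.0605 to 0.113 from limma. Over these omissions and that of OGD-VEH 9, the number of genes called over the whole table went from 1 to 2186, while the log2 fold change stayed between -2.08 and -1.55 for *Grm2* and between -2.12 and -1.33 for *Grm7*. Without a filter on low values, 36 genes and none of the receptors were called, *Grm2* having a padj of 0.0654 and *Grm7* one of 0.0946 from limma.

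*Grm5* encodes mGluR5, the group I receptor of the cortex. Summed values were 38.7, 40.8, 45.4 and 56.3 FPKM in CONTROL-VEH 1 to 4 and 47.5, 18.3, 22.6 and 14.5 FPKM in OGD-VEH 9 to 12. They were 38.4, 38.0, 49.8 and 51.4 FPKM in CONTROL-TIA 5 to 8 and 46.0, 36.5, 37.4 and 28.0 FPKM in OGD-TIA 13 to 16. OGD-VEH 9 lay among the controls, whereas OGD-VEH 10, 11 and 12 were below every control and below every OGD-TIA culture. The log2 fold change between OGD-VEH and CONTROL-VEH was -0.95 (SE 0.34, padj = 0.0885 from limma) and was not called. It passed both thresholds in 4 of the alternatives: weighted by length (-1.04, padj = 0.0310 from limma, where 6.38% of genes were called), with array quality weights (-1.004, padj = 0.00702 from limma), and without OGD-VEH 9, both summed (-1.30, padj = 0.00482 from limma) and by length (-1.31, padj = 0.000860 from limma). Calls rose over the whole table too, from 668 genes on the summed values to 1929 with array quality weights. Without OGD-VEH 9 there were 2186 genes called summed and 2074 by length, where all cultures by length gave 1024. By length, OGD-VEH 9 was at 30.005 FPKM, below the lowest control at 32.8 FPKM, and the groups no longer overlapped, as for 11.5% of genes in this direction. Between OGD-TIA and CONTROL-TIA the log2 fold change was -0.27 (SE 0.17, padj = 0.405 from limma).

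*Grm2* encodes mGluR2, a mostly presynaptic receptor (chromosome 9, 106643095 to 106656082, minus strand). Summed *Grm2* was at 6.59, 8.07, 5.32 and 7.98 FPKM in CONTROL-VEH 1 to 4 and at 2.86, 2.08, 2.02 and 0.870 FPKM in OGD-VEH 9 to 12. With TIA it was at 4.74, 11.1, 6.49 and 5.89 FPKM in CONTROL-TIA 5 to 8 and at 3.31, 3.32, 8.34 and 2.38 FPKM in OGD-TIA 13 to 16. All OGD-VEH cultures lay below all CONTROL-VEH cultures, and OGD-VEH 12 was lowest of all. With TIA the groups overlapped through OGD-TIA 15, whose value was raised by the noncoding Grm2-204 of 448 bases at 4.93 FPKM. Weighted by length the overlap was gone, with 1.83 to 3.88 FPKM in OGD-TIA and 4.11 to 5.02 FPKM in CONTROL-TIA, a separation downwards that 8.92% of genes showed by length. Between OGD-VEH and CONTROL-VEH *Grm2* fell, with a log2 fold change of -1.87 (SE 0.33, padj = 0.0336 from limma) on the summed values and -1.40 (padj = 0.0295 from limma) by length. Between OGD-TIA and CONTROL-TIA it was -0.78 (SE 0.40, padj = 0.314 from limma).

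*Grm3*, the partner of *Grm2* (chromosome 5, 9485541 to 9725170, minus strand, with a single isoform) and also used outside neurons, was at 6.32, 7.02, 7.13 and 8.25 FPKM in CONTROL-VEH 1 to 4, at 4.41, 3.62, 2.69 and 4.56 FPKM in OGD-VEH 9 to 12, at 6.30, 7.42, 7.37 and 9.61 FPKM in CONTROL-TIA 5 to 8 and at 5.11, 5.67, 4.89 and 5.63 FPKM in OGD-TIA 13 to 16. OGD-VEH lay below CONTROL-VEH and OGD-TIA below CONTROL-TIA without overlap, and every OGD-TIA culture lay above every OGD-VEH culture. *Grm3* was the only receptor whose summed values were free of overlap between OGD-TIA and CONTROL-TIA, where 6.72% of 16242 genes were separated downwards, and between OGD-TIA and OGD-VEH, where 1.30% of 16351 genes were separated upwards. The log2 fold change was -0.92 between OGD-VEH and CONTROL-VEH (SE 0.19, padj = 0.0383 from limma), short of the fold threshold. Whatever their fold, 8.44% of genes had a padj of at most 0.05 there. It was -0.51 between OGD-TIA and CONTROL-TIA (SE 0.14, padj = 0.146 from limma) and 0.49 between OGD-TIA and OGD-VEH (SE 0.19, padj = 0.551 from limma).

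*Grm7* encodes mGluR7, a receptor of the active zone with low affinity for glutamate. Summed *Grm7* was at 17.1, 24.0, 27.6 and 23.2 FPKM in CONTROL-VEH 1 to 4 and at 9.03, 13.03, 6.04 and 2.46 FPKM in OGD-VEH 9 to 12. With TIA it was at 21.3, 48.7, 42.3 and 46.8 FPKM in CONTROL-TIA 5 to 8 and at 21.8, 15.3, 30.5 and 6.29 FPKM in OGD-TIA 13 to 16. The vehicle groups did not overlap, and the TIA groups did. CONTROL-TIA 5 stood at about the level of the vehicle controls, away from the other CONTROL-TIA cultures, and OGD-TIA 16 was within the range of OGD-VEH. Between OGD-VEH and CONTROL-VEH *Grm7* fell, with a log2 fold change of -1.79 (SE 0.45, padj = 0.0480 from limma) on the summed values and -1.70 (padj = 0.0269 from limma) by length. Between OGD-TIA and CONTROL-TIA it was -1.24 (SE 0.48, padj = 0.220 from limma) and by length -0.86 (padj = 0.115 from limma).

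The group III members *Grm4* (chromosome 17, 27422387 to 27521403, minus strand) and *Grm8*, both presynaptic receptors, had the smallest OGD differences of the receptors with and without TIA. *Grm4* ranged from 5.57 to 7.85 FPKM in CONTROL-VEH, from 4.20 to 7.86 FPKM in OGD-VEH, from 5.38 to 6.88 FPKM in CONTROL-TIA and from 4.18 to 6.06 FPKM in OGD-TIA. *Grm8* ranged from 1.45 to 3.19, from 1.14 to 1.98, from 1.58 to 2.21 and from 1.22 to 2.02 FPKM in the same order. The groups overlapped for both genes in every comparison. Between OGD-VEH and CONTROL-VEH the 95% confidence interval of the log2 fold change was -0.73 to 0.25 for *Grm4* and -1.06 to 0.25 for *Grm8*, so a fall by the fold threshold lies outside the first interval and inside the second.

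**Figure D2:**
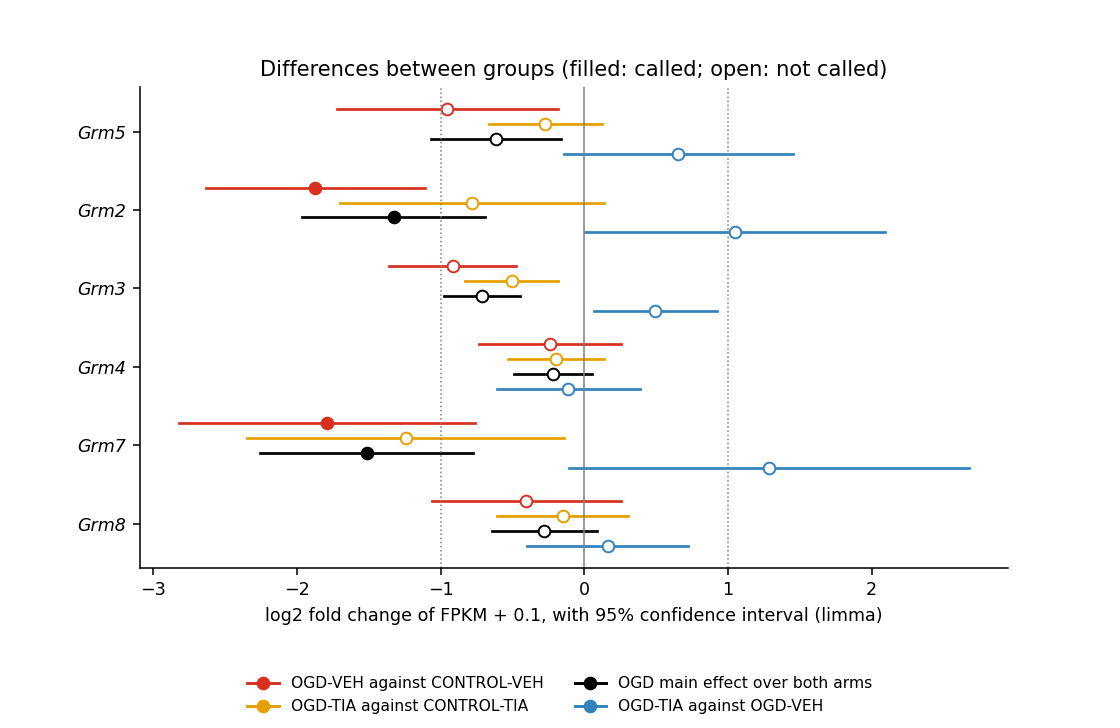
Log2 fold change of each receptor on the summed FPKM + 0.1 scale with its 95% confidence interval from limma, for 4 comparisons, with filled points where padj was at most 0.05 and the change at least 1 in size. Filled points are seen for *Grm2* and *Grm7* in OGD-VEH against CONTROL-VEH and in the main effect of OGD, and for no receptor in the other comparisons.

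Whether TIA by itself or after OGD altered the receptors was asked in 2 direct comparisons and in an interaction. Between CONTROL-TIA and CONTROL-VEH, 0 of 6 receptors and 0 of 16170 genes were called by limma (0%), and 621 genes (3.84%) had an unadjusted p under 0.05. The largest difference was that of *Grm7*, with a log2 fold change of 0.74 (SE 0.28, padj = 0.999 from limma) on the summed values and 0.15 by length. Between OGD-TIA and OGD-VEH, 0 of 6 receptors and 0 of 16351 genes were called by limma (0%), and 1293 genes (7.91%) had an unadjusted p under 0.05. The values of *Grm7* (1.28), *Grm2* (1.05), *Grm5* (0.65), *Grm3* (0.49) and *Grm8* (0.16) were above 0 and that of *Grm4* (-0.11) below. The padj of *Grm2*, *Grm3*, *Grm5* and *Grm7* was 0.551 each from limma. With array quality weights, where 408 genes were called, the padj alone passed for *Grm3* (0.68, padj = 0.0469 from limma) and *Grm5* (0.84, padj = 0.0487 from limma), and the fold alone for *Grm2* (1.09, padj = 0.0830 from limma) and *Grm7* (1.30, padj = 0.0834 from limma), so 0 of 6 receptors were called. In the interaction, the OGD difference with TIA minus that without TIA, 0 of 6 receptors and 0 of 16313 genes were called by limma (0%), and 988 genes (6.06%) had an unadjusted p under 0.05. The interaction was 1.09 for *Grm2* (95% confidence interval -0.09 to 2.27), 0.54 for *Grm7* (-0.97 to 2.06), 0.68 for *Grm5* (-0.18 to 1.54) and 0.41 for *Grm3* (-0.09 to 0.91). All hold 0, and those of *Grm2*, *Grm5* and *Grm7* also hold values larger than the OGD difference without TIA, so a difference of the OGD effect with TIA was neither shown nor bounded to a small size. Between OGD-TIA and CONTROL-TIA, 0 of 6 receptors and 0 of 16242 genes were called by limma (0%), with 3174 genes (19.5%) at an unadjusted p under 0.05, and all 6 receptors had a log2 fold change below 0, as 44.2% of genes did. By length, 0 of 6 receptors and 0.332% of genes were called in that comparison.

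The isoforms were then set apart, since the summed values of 3 genes moved with short isoforms. The full-length Grm7-202 (4197 bases) was at 11.4, 12.3, 14.7 and 12.1 FPKM in CONTROL-VEH 1 to 4, at 7.28, 3.34, 3.80 and 1.93 FPKM in OGD-VEH 9 to 12, at 10.5, 12.8, 13.4 and 12.9 FPKM in CONTROL-TIA 5 to 8 and at 6.42, 9.53, 10.7 and 4.09 FPKM in OGD-TIA 13 to 16. The vehicle groups were well apart, where 5.83% of 53087 isoforms were free of overlap in this direction, and the TIA groups met at OGD-TIA 15 and CONTROL-TIA 5. Grm7-203 (418 bases) and Grm7-205 (386 bases), annotated as coding fragments, held 12.6 to 72.8% of summed *Grm7*, with a mean of 64.6 ± 11.4% in CONTROL-TIA and 42.1 ± 7.09% in CONTROL-VEH. Of their bases, 44.3% and 40.4% are also in Grm7-202. Grm7-205 went from 0 to 20.2 FPKM among the 4 CONTROL-TIA cultures, so the higher summed *Grm7* of that group came from these fragments and not from the full-length isoform.

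For *Grm2*, the full-length Grm2-201 (4711 bases) was at 3.31, 2.91, 3.20 and 5.92 FPKM in CONTROL-VEH 1 to 4 and at 2.86, 2.06, 2.01 and 0.846 FPKM in OGD-VEH 9 to 12. The groups were apart by little, where 5.83% of isoforms were free of overlap in this direction. The log2 fold change of Grm2-201 was -0.9998 (SE 0.40, padj = 0.237 from limma). The shorter Grm2-203 (2111 bases), of which 99.9% of bases are also in Grm2-201, was at 2.89, 3.09, 2.12 and 0.434 FPKM in the same controls and at no more than 0.024 FPKM in OGD-VEH. It held 36.2 ± 20.2% of the sum of both isoforms in CONTROL-VEH and 0.498 ± 0.589% in OGD-VEH. In CONTROL-TIA that share went from 0.359 to 66.3%, so it was not steady among controls either.

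For *Grm5*, the full-length Grm5-202 (8047 bases) was within 31.4 to 35.0 FPKM in CONTROL-VEH, at 27.9, 13.6, 15.6 and 11.3 FPKM in OGD-VEH 9 to 12, within 30.8 to 34.4 FPKM in CONTROL-TIA and at 30.4, 27.3, 28.3 and 16.9 FPKM in OGD-TIA 13 to 16. On this isoform every OGD culture was below every control of its own pretreatment, as it was for 5.83% of isoforms without TIA and 3.81% with TIA. The noncoding Grm5-205 and Grm5-203 held 9.64 to 38.2% of summed *Grm5*, and in OGD-VEH 9 the first alone was at 15.2 FPKM. Grm5-204, with the cassette exon printed above, held 6.54 ± 1.85% of coding *Grm5* in CONTROL-VEH, 4.15 ± 1.76% in OGD-VEH, 6.06 ± 1.11% in CONTROL-TIA and 5.63 ± 2.07% in OGD-TIA, with overlap between all groups. The *Grm7* end of Grm7-201 held at most 4.81% of both full-length *Grm7* isoforms in any culture. The *Grm8* end of Grm8-201 held from 0 to 33.4% of the 3 longest coding *Grm8* isoforms within single groups and was too scattered to compare. Tested isoform by isoform, none of the receptors' isoforms was called in either OGD comparison by limma, against 75 of 53087 isoforms (0.141%) without TIA and 16 of 52476 (0.0305%) with TIA. The smallest padj without TIA were 0.0919 for Grm2-203 and 0.121 for Grm7-202 from limma.

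**Figure D3:**
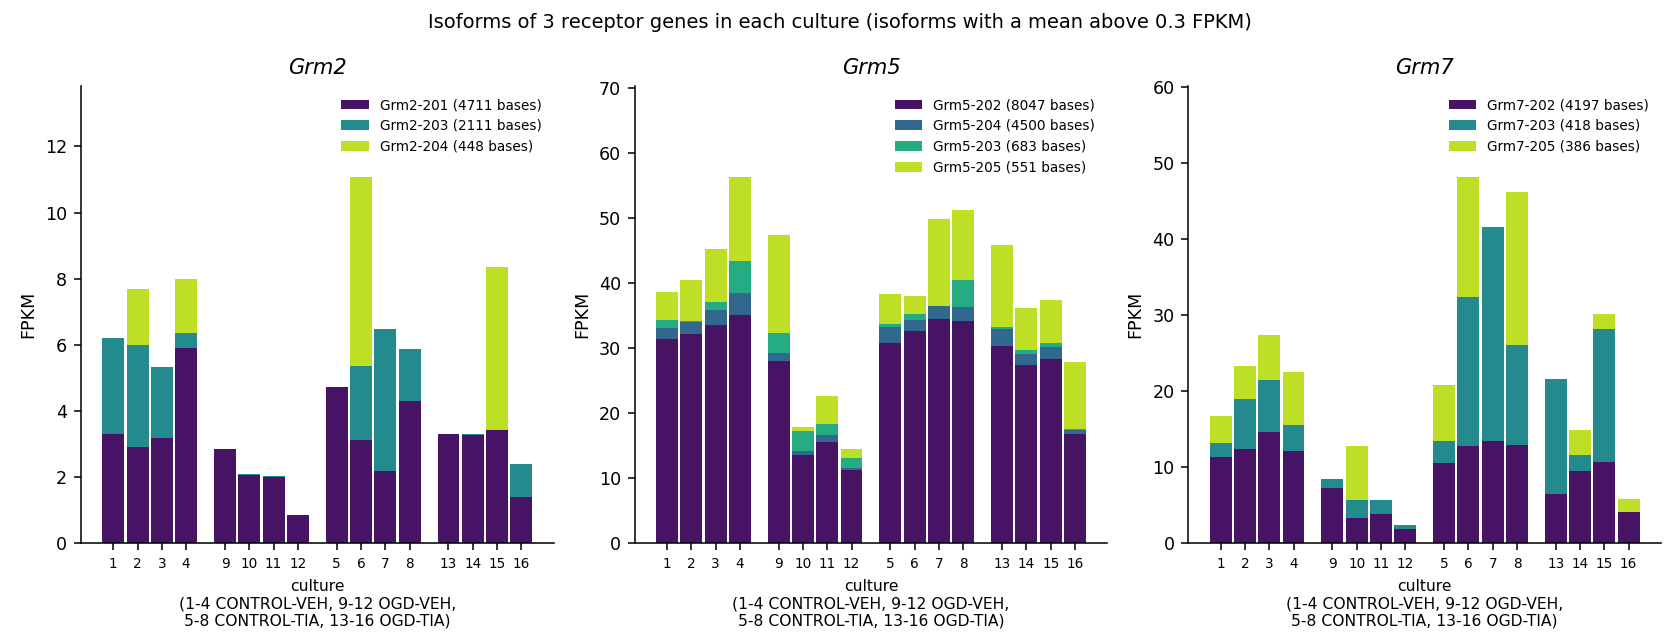
FPKM of the isoforms of *Grm2*, *Grm5* and *Grm7* in each culture as stacked bars, from the longest isoform at the bottom to the shortest at the top, for isoforms with a mean above 0.3 FPKM. The dark full-length parts of *Grm5* and *Grm7* are even among controls and lower in OGD-VEH, whereas the short isoforms on top vary from culture to culture within a group.

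The promoters of the called receptors are shown because *Grm2* and *Grm7* were lower together. RefSeq start sites on GRCm38.p6 were given for 4 of the 6 receptors, *Grm2*, *Grm3*, *Grm7* and *Grm8*. The 250 bases before the start of *Grm2* (chr9:106656110-106656359, minus strand) and before the more upstream of the *Grm7* starts (chr6:110645262-110645511, plus strand) are printed 5′ to 3′, with GC boxes (GGGCGG, either strand) in capitals.
Grm2 promoter: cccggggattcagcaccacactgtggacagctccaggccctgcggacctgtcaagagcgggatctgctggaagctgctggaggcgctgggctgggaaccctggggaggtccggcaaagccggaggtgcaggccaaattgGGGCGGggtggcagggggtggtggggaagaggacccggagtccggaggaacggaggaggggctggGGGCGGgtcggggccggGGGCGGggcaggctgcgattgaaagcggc
Grm7 promoter: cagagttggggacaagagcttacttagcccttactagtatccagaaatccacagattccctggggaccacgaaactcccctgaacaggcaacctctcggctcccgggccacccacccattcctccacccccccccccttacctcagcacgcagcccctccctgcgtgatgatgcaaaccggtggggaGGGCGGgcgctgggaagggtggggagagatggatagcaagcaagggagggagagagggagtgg
*Grm2* holds 3 GC boxes and *Grm7* holds 1, and 32.7% of 32851 promoter windows of this length hold at least 1. Neither holds the letters of the cAMP response element (TGACGTCA, 1.55% of windows), its core (TGACG, 17.8%), which lies within the full element, the AP-1 site (TGANTCA, 6.75%), the core of the hypoxia response element (ACGTG, 16.6%) or the TATA box (TATAAA, 12.4%) on either strand. The GC content is 71.2% for *Grm2* and 62.0% for *Grm7*, against a median of 52.4% over all windows. Receptors that were not called hold a GC box too: *Grm3* has 1, with a GC content of 62.4%, and 1 of the 3 *Grm8* starts has 1, with 68.4%. That *Grm8* start also holds an AP-1 site and a hypoxia response core, and another *Grm8* start holds the core of the cAMP response element. *Grm3* holds none of these.

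The wider pathway was followed in 78 listed genes of receptor scaffolds, effectors, partners and regulators. Of these, 76 were tested for OGD without TIA and 6 were called, all lower (against 1.68% of all genes), and 58 had a log2 fold change below 0, with a median of -0.57. On the side of group I, *Shank1*, a postsynaptic scaffold, fell from 64.3 ± 9.74 to 29.9 ± 9.83 FPKM (log2 fold change -1.15, padj = 0.0367 from limma), and *Itpr1*, the inositol trisphosphate receptor of the endoplasmic reticulum, from 48.1 ± 8.51 to 18.8 ± 12.4 FPKM (-1.51, padj = 0.0444 from limma). The cation channels *Trpc1* (-1.01, padj = 0.0358 from limma) and *Trpc5* (-1.77, padj = 0.0488 from limma), which open downstream of Gq-coupled receptors, fell as well. On the side of Gi/o, the potassium channel subunits *Kcnj6* (-1.22, padj = 0.0479 from limma) and *Kcnj9* (-1.20, padj = 0.0447 from limma), opened by G protein βγ subunits, fell. All 6 calls were lost in limma when any 1 of CONTROL-VEH 1 to 4 or OGD-VEH 10 to 12 was left out, with 0 of the pathway genes called each time, and all 6 were kept without OGD-VEH 9, with 18 called.

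Other genes of the pathway did not pass both thresholds in this comparison. *Gnao1*, the abundant Go subunit, was at 907 ± 97.2 FPKM in CONTROL-VEH against 529 ± 96.3 FPKM in OGD-VEH (-0.79, padj = 0.0336 from limma), less than the fold threshold. *Homer1* (-0.63), *Homer2* (-0.48), *Ncdn* (-0.73), which encodes neurochondrin, a partner of mGluR5, and *Plcb1* (-0.53), a phospholipase C, were below 0, while *Homer3* (0.46) and *Plcb4* (0.26) were above. Of the partners of group III, *Pick1*, which binds the tail of mGluR7, was at -0.41 and *Elfn1*, which recruits mGluR7 across the synapse, at 0.23. By list, the median was -0.63 for 15 group I scaffolds and regulators, -0.38 for 16 Gq effectors, -0.72 for 21 Gi/o effectors, -0.09 for 11 partners of group III and -0.45 for 12 genes of receptor desensitization. With TIA, 0 of the 76 genes tested were called between OGD-TIA and CONTROL-TIA, 61 were below 0 and the median was -0.26.

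Markers of the cells in the cultures were read in the same comparisons. Between OGD-VEH and CONTROL-VEH, 7 of 7 neuron markers had a log2 fold change below 0 with a median of -0.71, and 0 were called. Their summed level was 1854 to 2414 FPKM in CONTROL-VEH against 918 to 1756 FPKM in OGD-VEH. For 6 excitatory neuron markers the median was -0.90, and for 6 inhibitory neuron markers it was -0.37, with *Sst* called lower. In the other direction, 4 of 7 oligodendrocyte lineage markers (*Cspg4*, *Olig1*, *Olig2* and *Sox10*) and 1 of 6 progenitor markers (*Nes*) were called higher (2.40% of all genes were), with medians of 1.25 and 1.07, and 7 of 8 astrocyte markers were above 0 with a median of 0.67. Oligodendrocyte lineage markers summed to 177 to 213 FPKM in CONTROL-VEH against 244 to 676 FPKM in OGD-VEH. Microglia markers stayed at 0.631 to 1.83 FPKM in CONTROL-VEH against 0.886 to 1.23 FPKM in OGD-VEH, and vascular and fibroblast markers at 1.81 to 5.41 and 1.65 to 5.78 FPKM. With TIA the medians were -0.32 for neuron, -0.28 for excitatory neuron, -0.61 for inhibitory neuron, 0.38 for astrocyte, 0.65 for oligodendrocyte lineage and 0.56 for progenitor markers, and 0 of these genes were called.

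Set against the mean of the 7 neuron markers in each culture, *Grm2* was lower in OGD-VEH than in CONTROL-VEH by a log2 difference of -1.16 on the summed values and -0.68 by length, without overlap on either scale. *Grm7* was lower by -1.07 on the summed values, with overlap, and by -0.99 by length, without. The share of all genes free of overlap relative to these markers was not computed, so how common such a separation is remains unknown. The summed values of *Grm3* (-0.20), *Grm5* (-0.24), *Grm4* (0.47) and *Grm8* (0.31) differed from the markers by the amounts given, with overlap for each of these 4 genes. Between OGD-TIA and CONTROL-TIA, *Grm2* was lower relative to the same markers by -0.45 summed and -0.29 by length, and *Grm7* by -0.92 and -0.53. Every receptor overlapped there on both scales. No other marker list was used as the reference. The mean log2 level was 7.06 in CONTROL-VEH and 6.34 in OGD-VEH for the neuron markers, and 5.35 and 4.35 for the excitatory neuron markers. The part that a changed mix of cells has in the receptor values was not tested.

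**Figure D4:**
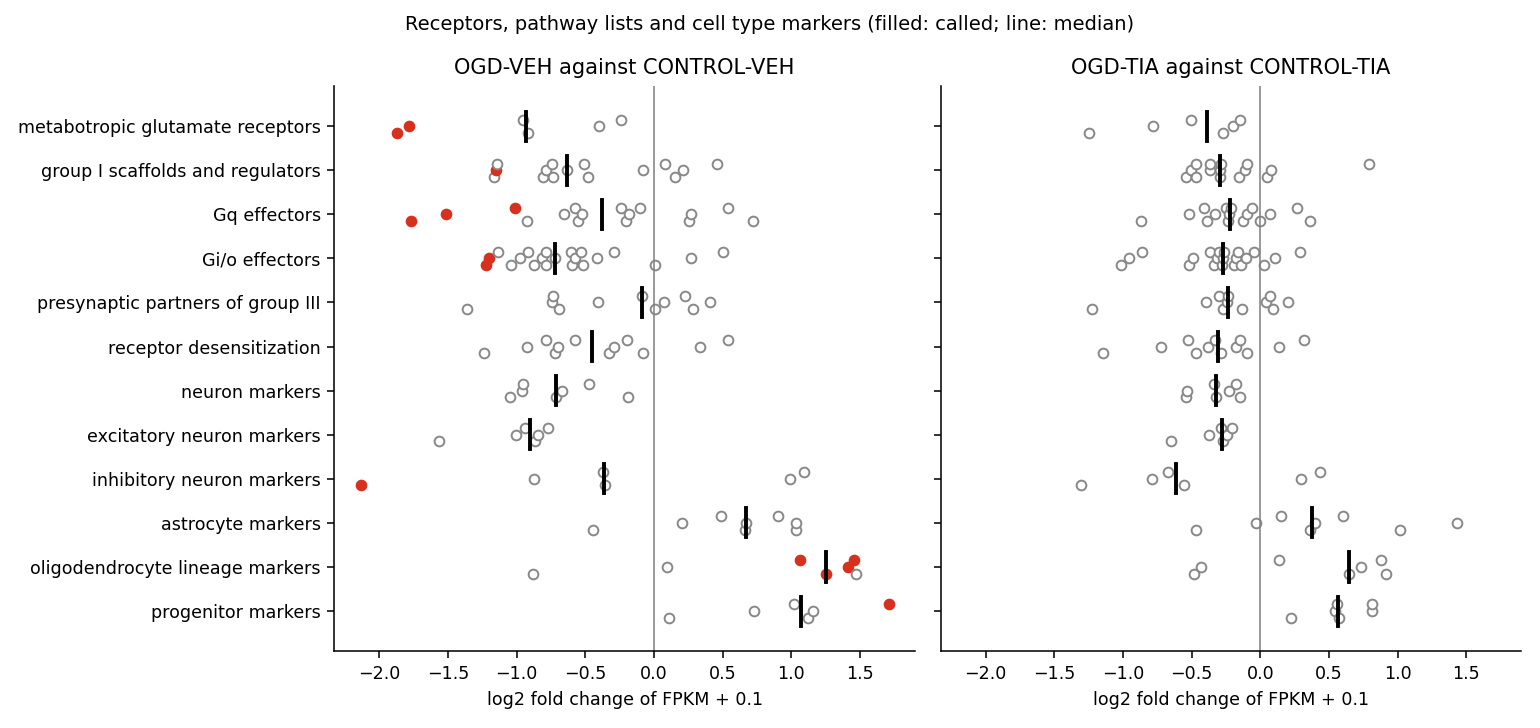
Log2 fold change of each gene of the receptor family, the pathway lists and the cell type markers after OGD with vehicle (left) and with TIA (right), with called genes filled and the median of each list as a line. The medians of the receptors (-0.93) and of the neuron markers (-0.71) lie below 0 and those of the oligodendrocyte lineage (1.25) and progenitor markers (1.07) above it without TIA, and no gene shown is called with TIA.

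Across the 16 cultures, the receptors' patterns were compared with those of 11647 protein-coding genes of at least 2 FPKM by Pearson's r of log2(FPKM + 0.1), as a description over cultures that share their groups. For summed *Grm5* the closest gene was *Dlgap1*, a postsynaptic scaffold protein that binds Shank (r = 0.975), followed by *Opcml* and *Capn5*. For *Grm2* it was the plasma membrane calcium pump *Atp2b4* (r = 0.946), followed by *Mapk9* and *Rnf150*, and for *Grm7* it was *Fhod3* (r = 0.951), followed by *Dpf1* and *Slc45a1*. For *Grm3* it was *Drp2* (r = 0.919), followed by *Tcaf1* and *Adam23*. The closest genes of *Grm4* (*Kcna3*, r = 0.759, *Rbck1* and *Pcdhb10*) and *Grm8* (*Ypel3*, r = 0.851, *Clasp1* and *Itm2c*) were less alike. By length, *Grm5* was closest to *Capn5* (r = 0.993) and *Grm2* to *Nptx1* (r = 0.984), so the names depend on how isoforms are added. Among the receptors themselves, length-weighted *Grm2* and *Grm7* had r = 0.951 over 16 cultures, 0.976 within the 8 OGD cultures and -0.37 within the 8 controls. With isoforms summed, r was 0.892, 0.901 and 0.317 in the same order. Over all cultures and among OGD cultures high values of this pair went together on both scales, while among controls the sign depends on how isoforms are added. Such likeness was not particular to this pair. By length, *Grm5* had r = 0.951 with *Grm7* and 0.937 with *Grm2* over 16 cultures, and 0.927 and 0.908 within the OGD cultures. With isoforms summed, these were 0.758 and 0.769, and 0.683 and 0.740.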

How the data were processed

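RNA of 16 cultures was sequenced by the authors' service provider from stranded mRNA libraries with 50-base single-end reads, and per the labels' processing notes and the study's methods was mapped with STAR to GRCm38. The deposited values are FPKM per isoform, which the authors scaled between libraries, by TMM according to the table's name. Isoform expression was estimated with eXpress per the study's methods. Its version and use of strand were not given in the sources used here, and Gm20387, antisense to *Grm7*, had a mean of 0.973 FPKM. Of 135276 lines, 74 without an identifier were left out. Isoform FPKM were summed by gene symbol, 0.1 was added and log2 taken, so fold changes of low genes are understated. Genes averaging 0.5 FPKM or more over the cultures compared were tested with limma 3.58.1 in R 4.3.3 (empirical Bayes with a trend) and Benjamini-Hochberg adjustment. The study's DESeq2 needs counts and was not run. On simulated data with 200 of 16170 genes changed by 2 on the log2 scale in 4 against 4 cultures, 80.5 to 85.0% were called. These are as many genes as were tested between CONTROL-TIA and CONTROL-VEH. The share called at the spread of the OGD cultures was not tested. Isoform positions and coding ends came from GENCODE M21, in which all 28 receptor isoforms had the same start and end. Promoters came from RefSeq. Python 3.11.15, numpy 2.4.6, pandas 2.3.3 and matplotlib 3.10.9 were used otherwise.

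The receptors, gene lists and tests were chosen with earlier results of these data known. Named genes are the 6 receptors, chosen pathway genes (*Grm6*, *Homer1*, *Homer2*, *Homer3*, *Plcb1*, *Plcb4*, *Itpr1*, *Gnao1*, *Ncdn*, *Pick1* and *Elfn1*), listed genes that passed both thresholds for OGD without TIA, and the 3 genes most alike each receptor. Marker genes are named where called. Alternatives were a pseudocount of 1, no filter, median-ratio scaling, array quality weights, all 16 cultures in one fit, isoforms weighted by length and leaving out each culture. Leaving out cultures together with length weighting, and the count of pathway genes under each alternative, were added after the data had been seen. Some genes that this rule names are not reported here.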

Additional observations from a re-analysis of the deposited data

Results flagged for a closer look

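One of 24 groups of 4 values, 6 receptors in 4 groups, had a culture far from the others. Summed *Grm7* in CONTROL-TIA 5 was 21.316 FPKM, where the other 3 CONTROL-TIA cultures were at 42.3 to 48.7 FPKM, and the gap to the nearest of them was 0.831 of the group's range, just past the 95% critical value of Dixon's test for 4 values. Chance passes this limit in about 1 in 20 groups, so 1 of 24 is not unusual. The same culture had 10.5 FPKM of the full-length Grm7-202 and 11.99 FPKM of *Grm7* weighted by length, below the 12.8 to 13.4 FPKM and 16.5 to 16.9 FPKM of the other CONTROL-TIA cultures.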

How the results depend on the processing

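No paired analysis was possible because the cultures are numbered 1 to 16 across the groups and no replicate number is shared. For OGD-VEH against CONTROL-VEH, where 2 receptors and 668 genes were called, the numbers were 0 and 36 with low values kept in, 4 and 1929 under array quality weights (*Grm3*, -1.08, and *Grm5* added), and 2 and 1390 with all 16 cultures in one fit. By length they were 3 and 1024. Leaving out 1 culture gave 0 to 3 receptors and 1 to 2186 genes, and by length 0 to 3 and 1 to 2074. For OGD-TIA against CONTROL-TIA, 0 receptors were called throughout, and genes went from 0 to 7 with low values kept in, 80 with weights, 1 in one fit, 53 by length, 0 to 16 when leaving out 1 culture and 0 to 101 when doing so by length. For CONTROL-TIA against CONTROL-VEH, 4 genes were called with low values kept in and 0 when leaving out any 1 culture. For OGD-TIA against OGD-VEH, 4 were called with low values kept in, 408 with weights and 0 to 2 leaving out 1 culture, and in the interaction 3, 101 and 0 to 1. No receptor was called in these 3 comparisons under any alternative run. Over both pretreatments, 394 genes were called with a pseudocount of 1, 526 to 1058 leaving out 1 culture (2 receptors each time), and 371 to 788, with 1 to 2 receptors, when doing so by length. The directions that turned were all of small values: for CONTROL-TIA against CONTROL-VEH, 0.0683, 0.0498 and 0.0669 for *Grm2*, *Grm5* and *Grm8* with weights, and, leaving out 1 culture, -0.28 to 0.12 for *Grm2*, -0.0275 to 0.17 for *Grm3*, -0.10 to 0.0824 for *Grm5* and -0.23 to 0.13 for *Grm8*. *Grm4* turned between OGD-TIA and OGD-VEH (-0.26 to 0.0379 leaving out 1 culture) and in the interaction (-0.21 with weights, -0.10 to 0.19 leaving out 1 culture), and *Grm8* between OGD-TIA and CONTROL-TIA when leaving out 1 culture by length (-0.19 to 0.0024, and -0.24 to -0.02 on the sums). With all cultures kept, 195 receptor values kept their direction and side of the thresholds, 4 turned, 3 became called and 2 lost a call. The cause of these changes was not tested. Depth limits *Grm2* and *Grm8*, which went down to roughly 86.8 and 90.0 reads in a culture.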
